A study of Mus musculus with 6 samples.

Results

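The genes described here encode the SR proteins and the heterogeneous nuclear ribonucleoproteins (hnRNPs), the 2 large families of RNA-binding proteins that act on splicing. Members were all gene rows of the deposited table whose symbol begins with Srsf or Hnrnp, with 1 pseudogene row left out. The rule gave 31 of 36210 gene rows, 11 SR protein genes and 20 hnRNP genes, and used no measured value. The libraries came from the brains of APP/PS1 mice, which carry mutant human amyloid precursor protein and presenilin transgenes and deposit amyloid plaques. The labels name astrocytes, and marker levels of these and other cell types are given below. Mice of the AVE0991 group received AVE0991, a non-peptide agonist of the angiotensin-(1-7) receptor, at 10 mg per kg by intraperitoneal injection, and mice of the vehicle group received 0.9% sterile saline by the same route. Both groups were injected daily over 30 days, both carried the transgenes, and the series gives an age of 8 months. There were 3 libraries in each group. No non-transgenic mice are among the samples analysed here, so no value below measures the effect of the transgenes. Nothing in the labels ties each library to its own animal, and p-values therefore measure only the spread between these libraries.

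SR proteins carry RNA-recognition motifs and a tail rich in arginine and serine, the RS domain. They bind exonic enhancers and recruit the spliceosome, and phosphorylation of the tail by the SRPK and CLK kinases sets their location and activity. The hnRNPs coat nascent transcripts, often through RNA-recognition or KH domains with glycine-rich tails, and many of them repress splice sites that SR proteins favour. Genes of both families limit their own output by splicing poison exons or retained introns into their transcripts, which are then degraded by nonsense-mediated decay. In brain, both families govern neuronal and glial exons, and hnRNP A1 and A2/B1 are mutated in human neurodegenerative disease.

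The coding sequences shown were read from GENCODE M21 transcripts of GRCm38. They show the arginine-serine repeats of SR proteins and an arginine-glycine stretch of an hnRNP, a feature that not all hnRNP genes have. Fold changes below are set against the GC content of whole transcripts, not of these sequences. Each is a stretch of 30 codons on the coding strand, chosen as the stretch richest in the marked codons. Capitals mark arginine and serine codons in the SR protein genes and arginine and glycine codons in the hnRNP gene. Srsf3, on chromosome 17, is shown from base 334 to 423 of its coding sequence, Srsf10 on chromosome 4 from 310 to 399, Srsf12 on chromosome 4 from 328 to 417, Srsf2 on chromosome 11 from 349 to 438, and Hnrnpul1 on chromosome 7 from 1894 to 1983.
Srsf3: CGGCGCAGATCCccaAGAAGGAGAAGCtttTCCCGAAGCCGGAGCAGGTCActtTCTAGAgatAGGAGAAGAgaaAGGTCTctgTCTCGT
Srsf10: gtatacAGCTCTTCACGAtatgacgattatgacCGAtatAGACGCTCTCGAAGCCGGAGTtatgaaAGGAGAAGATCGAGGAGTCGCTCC
Srsf12: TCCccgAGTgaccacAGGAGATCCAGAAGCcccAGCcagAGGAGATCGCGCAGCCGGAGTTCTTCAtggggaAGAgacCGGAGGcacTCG
Srsf2: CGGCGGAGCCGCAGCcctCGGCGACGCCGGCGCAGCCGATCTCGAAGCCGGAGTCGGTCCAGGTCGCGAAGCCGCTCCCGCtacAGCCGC
Hnrnpul1: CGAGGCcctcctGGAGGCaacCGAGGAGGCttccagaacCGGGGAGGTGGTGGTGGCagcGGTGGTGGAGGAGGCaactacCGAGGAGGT

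Adjacent arginine and serine codons (RS or SR) numbered 9 in Srsf9 and 106 in Srsf4, with a median of 42 over the SR protein genes, against a median of 4 and a range of 2 to 13 in the hnRNP genes. Triplets coding for arginine-glycine-glycine had a median of 2.5 and a range of 0 to 8 in hnRNP genes, against 0 and 0 to 2 in SR protein genes. The stretches of the SR protein genes differed in base composition and in the codons they hold. Arginine and serine took 28 of the 30 codons in Srsf2, 20 in Srsf10, 24 in Srsf3 and 21 in Srsf12. In Srsf2, 76.7% of the bases shown were G or C, against 47.8% in Srsf10, 53.3% in Srsf3 and 63.3% in Srsf12. Srsf10 wrote 28 of its 51 arginine codons as AGA or AGG, and Srsf2 wrote 11 of 53 that way. The sequence after the stop codon was poor in G and C in both families, with a median of 36.4% in SR protein genes and 36.1% in hnRNP genes, while the coding part had 53% and 50.2%.

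Gene rows received 44583274 to 50066615 estimated counts per library. The lowest count of any member in any library was 303, for Srsf12, and the highest was 14991, for Hnrnpk. All 31 members passed the filter on low counts, as did 20363 gene rows in all, so no member was chosen through the group in which it was high. In mean level scaled to library size (CPM), 30 of 31 members lay above the median gene, and all 31 had a biological coefficient of variation below the median gene, with a median of 13.1% against 21.0%. For 8 markers of astrocytes, the cells the labels name, summed levels were 6221 to 7719 CPM in AVE0991 and 5528 to 6885 CPM in vehicle libraries. They were 3622 to 3874 and 3862 to 4271 CPM for 8 neuron markers, and 5470 to 11782 and 3609 to 7876 CPM for 6 oligodendrocyte markers. The oligodendrocyte sum was highest in AVE0991 replicate 2 and lowest in vehicle replicate 1. In the same order of groups, 6 microglia markers summed to 279 to 391 and 300 to 356 CPM. Sums of 5 endothelium markers were 32.5 to 102 and 58.6 to 114 CPM. The 8 markers of cerebellar granule neurons summed to 209, 2063 and 2024 CPM in the AVE0991 libraries, against 182 to 207 CPM in vehicle libraries. In these cerebellar markers, AVE0991 replicates 2 and 3 thus stood apart from the other 4 libraries. Sums are weighted to the most abundant markers. The median log2 fold change over the markers was 0.66 for astrocytes, 0.04 for neurons and 0.09 for oligodendrocytes. It was -0.04 for microglia, -0.52 for endothelium and 2.81 for cerebellar granule neurons, so levels of the cell types may differ between the groups. No marker of these lists was at 0, 0 were called, and their part in the results below was not tested except where values without those libraries are given. In such bulk libraries, fewer cells of a type and less RNA per cell cannot be told apart.

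Levels per transcript length, as the authors' FPKM, spanned a wide range within both families. Hnrnpl, which binds CA-rich RNA, and Hnrnpk, a KH-domain protein that binds C-rich RNA, were the highest, at 115.7 ± 10.7 and 112.2 ± 8.75 FPKM in AVE0991 libraries, against 104.7 ± 6.43 and 118.8 ± 8.85 FPKM in vehicle libraries (SD, n = 3 each). Their ranges overlapped in AVE0991 and in vehicle libraries, so the order of these 2 genes is not resolved. Hnrnpc, which binds uridine tracts, had 61.1 ± 6.43 FPKM in AVE0991 and 77.7 ± 3.27 FPKM in vehicle libraries, and Hnrnpa1 had 60.4 ± 7.11 and 67.0 ± 0.223 FPKM in these groups. Their ranges overlapped in the AVE0991 libraries and were apart in the vehicle libraries. Of the SR protein genes, Srsf5 had the highest level, 44.4 ± 4.24 FPKM in AVE0991 and 51.8 ± 2.15 FPKM in vehicle libraries. The lowest level of all members was that of Srsf12, 2.70 ± 0.580 FPKM in AVE0991 and 4.20 ± 0.125 FPKM in vehicle libraries. FPKM of all genes tested summed to 637566 to 719399 in AVE0991 and 585327 to 589899 in vehicle libraries, so the groups differ in scale. For Hnrnpc the log2 fold change was -0.35 on FPKM (pseudocount 0.1) and -0.13 on counts. The tests below used counts unless FPKM is named.

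**Figure D1:**
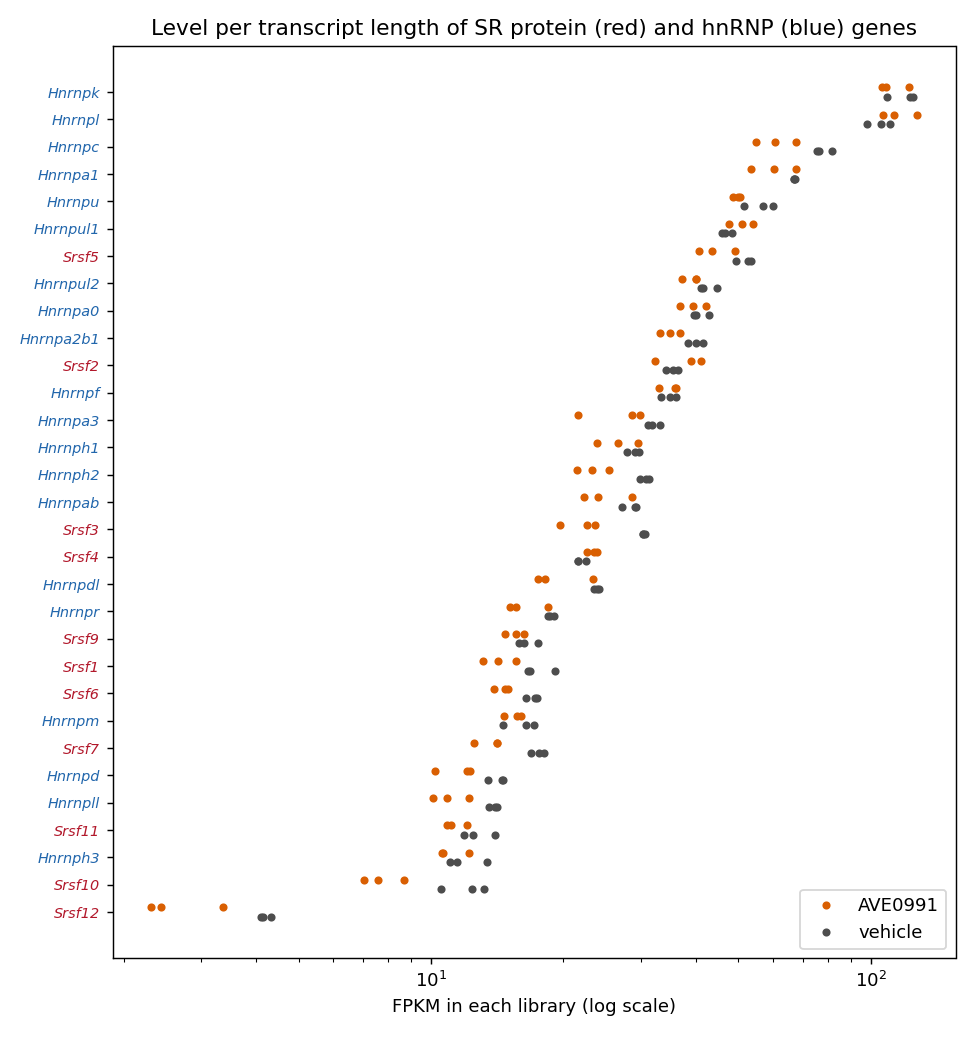
FPKM of each member (rows, ordered by level) in each library on a log scale, with AVE0991 in orange above vehicle in grey and 1 point per library. Levels run from Srsf12, at 2.31 to 4.34 FPKM, to Hnrnpk and Hnrnpl, near or above 100 FPKM in every library.

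No SR protein or hnRNP gene passed the test between AVE0991 and vehicle. With edgeR's quasi-likelihood test and Benjamini-Hochberg adjustment over 20363 genes, 0 of 31 members were called higher, against 7 genes or 0.0344% of all genes tested, and 0 were called lower, against 169 genes or 0.83%. The members' adjusted p in edgeR ran from 0.111 to 0.967. At an unadjusted p under 0.05, 0 members were higher, against 10.9% of all genes, and 5 of 31 (16.1%) were lower, against 12.7% of all genes. Those 5 were Srsf3, Srsf10, Srsf12, Srsf7 and Hnrnph2. DESeq2 called 3 members lower (Srsf3, Srsf10 and Srsf12), or 9.68% of them, against 6.48% of all genes, and 0 higher, against 4.71%. With limma-voom 1 member, Srsf12, was called lower, against 3.54% of all genes, and 0 higher, against 2.2%.

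The direction leaned to lower values in the AVE0991 libraries. The log2 fold change was below 0 in 23 of 31 members (74.2%), against 50.7% of all genes, with 9 of 11 SR protein genes and 14 of 20 hnRNP genes. Its median was -0.21 over the SR protein genes, -0.09 over the hnRNP genes and -0.01 over all genes tested. In 11 members the 3 AVE0991 libraries all lay below the 3 vehicle libraries in CPM (35.5% of members, against 16.3% of all genes), and in 2 members, Hnrnpul1 and Hnrnpl, they all lay above (6.45%, against 14.3%). The median deviation of the SR protein genes from their vehicle mean was -0.23, -0.20 and -0.17 (log2) in AVE0991 replicates 1, 2 and 3, and 0.03, -0.06 and 0.02 in vehicle replicates 1, 2 and 3. For the hnRNP genes it was -0.09, -0.06 and -0.08 in AVE0991 and 0.05, -0.03 and 0.00 in vehicle libraries. Without AVE0991 replicates 2 and 3, which had the high cerebellar markers, the medians were -0.23 for SR protein and -0.08 for hnRNP genes, resting on 1 AVE0991 library. As a share of gene counts, the members took 0.266%, 0.248% and 0.251% in AVE0991 libraries, against 0.284%, 0.281% and 0.284% in vehicle libraries. That share is not scaled by TMM. In CPM, which are, the members summed to 2654, 2597 and 2634 in AVE0991 libraries, against 2796, 2693 and 2761 in vehicle libraries, a smaller gap.

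**Figure D2:**
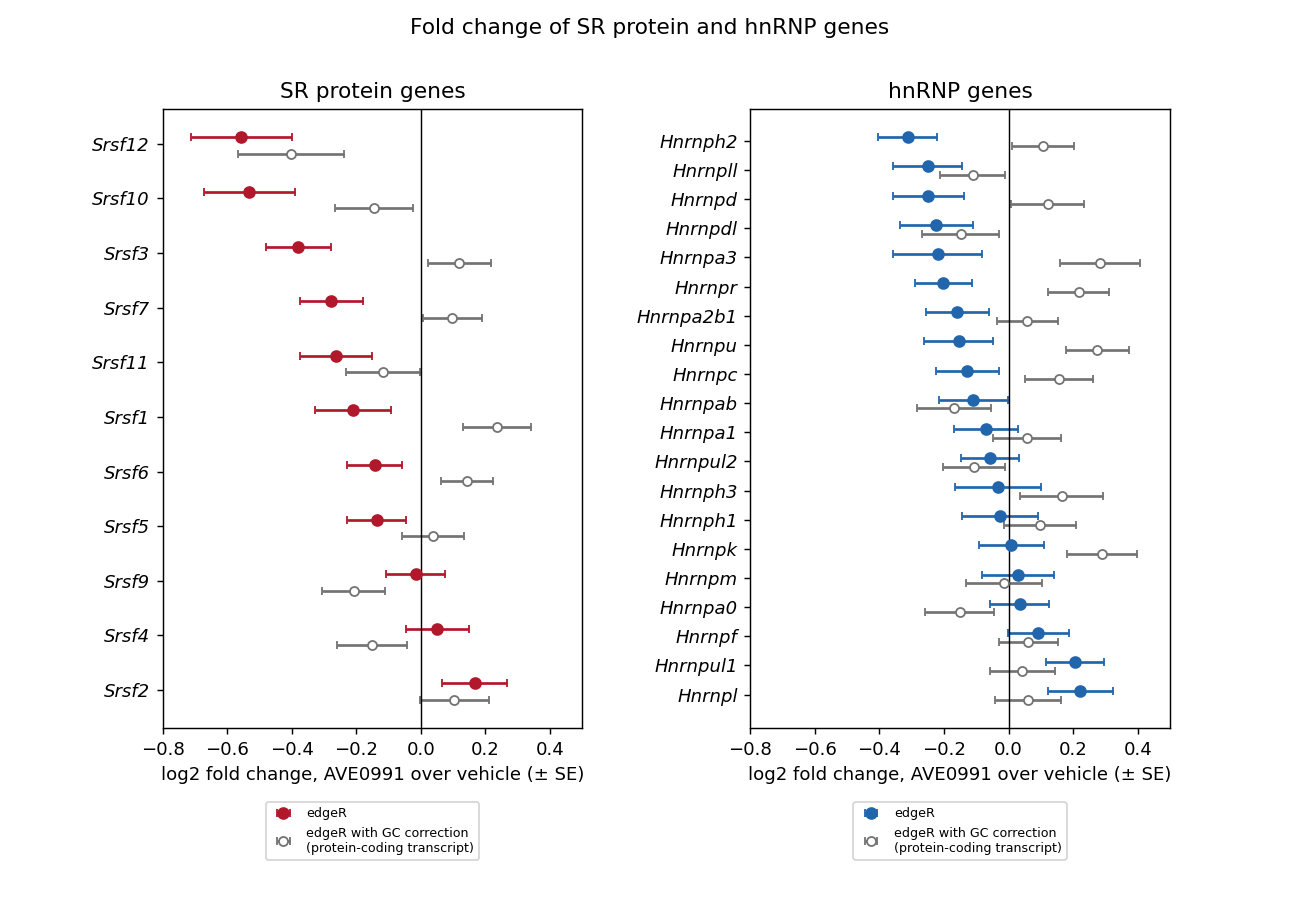
Log2 fold change of AVE0991 over vehicle with its standard error for each member, from edgeR (filled) and from edgeR with a correction for the GC content of the longest protein-coding transcript (open), SR protein genes at left and hnRNP genes at right. Filled points lie below 0 for 23 of 31 members, and open points for 11 of 31.

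The lowest fold changes belonged to SR protein genes with a single RNA-recognition motif. Srsf3, which encodes the smallest SR protein and couples splicing to mRNA export, had 58.4, 53.2 and 64.3 CPM in the AVE0991 libraries, against 78.0, 74.9 and 76.0 CPM in vehicle libraries. The groups did not overlap, and AVE0991 replicate 2 was lowest. The log2 fold change was -0.38 ± 0.10 (SE), with an edgeR adjusted p of 0.111 and a DESeq2 adjusted p of 0.0342. Srsf10, a regulator that represses splicing once dephosphorylated, had 19.9, 22.7 and 25.7 CPM in the AVE0991 libraries, against 36.5, 28.3 and 33.9 CPM in vehicle libraries. AVE0991 replicate 1 was lowest, and the highest AVE0991 library stayed under the lowest vehicle library. Its log2 fold change was -0.53 ± 0.14 (SE; edgeR adjusted p 0.113, DESeq2 adjusted p 0.0300). Its close relative Srsf12 had 9.59, 7.21 and 6.88 CPM in the AVE0991 libraries, against 11.7, 11.8 and 11.3 CPM in vehicle libraries. The vehicle libraries were tightly grouped, and AVE0991 replicate 1 came nearest to them. The log2 fold change of Srsf12, -0.56 ± 0.16 (SE), was the largest in size of the 31, with an edgeR adjusted p of 0.120 and a DESeq2 adjusted p of 0.0467. Without AVE0991 replicate 1 it was -0.72, and edgeR then called it, with an adjusted p of 0.0195, the 1 member called lower against 4.76% of all genes. None was called higher, against 6.63%. Without AVE0991 replicates 2 and 3, those with high cerebellar markers, the value of Srsf12 was -0.27 (edgeR adjusted p 0.490), and the lowest value was that of Srsf10, -0.72 (edgeR adjusted p 0.224).

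Srsf7, the zinc-knuckle relative of Srsf3, had 33.7, 31.2 and 36.2 CPM in the AVE0991 libraries, against 41.9, 38.4 and 42.2 CPM in vehicle libraries. The groups were apart by a small margin, and the log2 fold change was -0.28 ± 0.10 (SE, edgeR adjusted p 0.161). Srsf11, an SR protein first described as p54, had 38.1, 36.4 and 38.1 CPM in the AVE0991 libraries, against 51.1, 40.4 and 43.7 CPM in vehicle libraries. Here the vehicle libraries were the more spread, with replicate 1 highest, and the groups did not overlap. Srsf2, also known as SC35 and a marker of nuclear speckles, had 81.8, 71.1 and 83.9 CPM in the AVE0991 libraries, against 72.2, 67.4 and 71.4 CPM in vehicle libraries. Its groups overlapped through AVE0991 replicate 2, and its log2 fold change, 0.17 ± 0.10 (SE) at an edgeR adjusted p of 0.350, was the highest of the SR protein genes.

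SR protein genes whose products have paired RNA-recognition motifs had log2 fold changes from -0.21 to 0.05. Srsf1, the prototype of the family, had 69.7, 78.9 and 87.0 CPM in the AVE0991 libraries, against 87.1, 86.1 and 99.3 CPM in vehicle libraries. AVE0991 replicate 3 reached the vehicle range, and the log2 fold change was -0.21 ± 0.12 (SE, edgeR adjusted p 0.321). Srsf5 had 74.4, 69.1 and 65.0 CPM in the AVE0991 libraries, against 74.2, 77.4 and 77.6 CPM in vehicle libraries, and the groups overlapped through AVE0991 replicate 1. Srsf6 averaged 52.4 ± 2.27 CPM in AVE0991 and 57.9 ± 1.26 CPM in vehicle libraries (SD, n = 3 each) without overlap. Srsf4, with the longest RS tail, averaged 65.5 ± 2.38 and 63.2 ± 5.07 CPM in AVE0991 and vehicle libraries. Srsf9, with the shortest, averaged 18.2 ± 0.701 and 18.4 ± 0.822 CPM in the same order. Srsf4 and Srsf9 thus differed between groups by less than the spread within them.

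**Figure D3:**
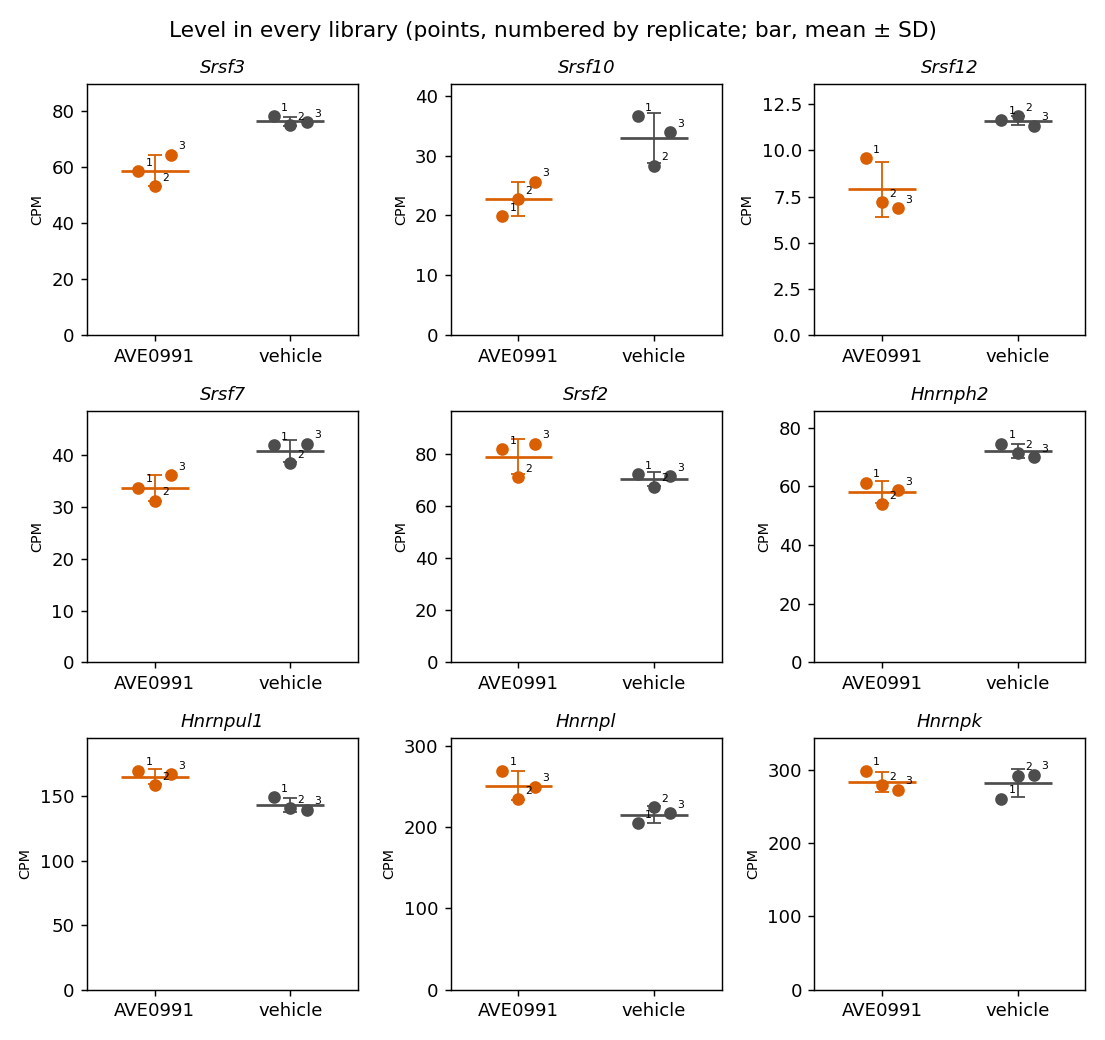
CPM of 9 members in each library, AVE0991 at left and vehicle at right, with points numbered by replicate and bars for the mean and SD of 3 libraries. Srsf3, Srsf10, Srsf12, Srsf7 and Hnrnph2 lie lower in all 3 AVE0991 libraries, Hnrnpul1 and Hnrnpl lie higher in all 3, and Srsf2 and Hnrnpk overlap.

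The log2 fold changes of the hnRNP genes ran from -0.31 to 0.22, against -0.56 to 0.17 for the SR protein genes. In the F/H group, whose proteins bind G-rich tracts, Hnrnph2 on the X chromosome had 61.2, 53.9 and 58.8 CPM in the AVE0991 libraries, against 74.6, 71.3 and 70.0 CPM in vehicle libraries. All AVE0991 libraries lay below all vehicle libraries, at a log2 fold change of -0.31 ± 0.09 (SE) and an edgeR adjusted p of 0.126. Its near-identical paralog Hnrnph1 averaged 53.0 ± 6.87 CPM in AVE0991 and 54.0 ± 2.43 CPM in vehicle libraries, with a log2 fold change of -0.03 ± 0.12 (SE). The difference between the 2 paralogs was not tested, and reads could be assigned to either of them where they are alike. Corrected for GC content of the longest protein-coding transcript, Hnrnph2 had 0.11 ± 0.10 and Hnrnph1 0.10 ± 0.11 (SE). With the longest annotated transcript of any type the values were 0.07 and 0.62. Hnrnpf had a log2 fold change of 0.09 and Hnrnph3 one of -0.03.

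Both members of the L group are CA-repeat binders, and they had opposite signs. Hnrnpl had 269.6, 234.5 and 250.2 CPM in the AVE0991 libraries, against 204.7, 224.7 and 217.1 CPM in vehicle libraries. The groups did not overlap, and the log2 fold change was 0.22 ± 0.10 (SE, edgeR adjusted p 0.236), the highest of the members. Hnrnpll, which controls exons of Ptprc in lymphocytes, had 33.0, 32.3 and 39.3 CPM in the AVE0991 libraries, against 42.6, 41.4 and 40.4 CPM in vehicle libraries. The groups were apart, though AVE0991 replicate 3 lay close to vehicle, and the log2 fold change was -0.25 ± 0.11 (SE, edgeR adjusted p 0.215). The difference between Hnrnpl and Hnrnpll was not tested. Corrected for GC content of the longest annotated transcript, they had 0.06 and 0.15. With the longest protein-coding transcript the values were 0.06 and -0.11.

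In the U group, Hnrnpul1, an RGG-box protein with a role at DNA breaks, had 169.9, 158.8 and 167.3 CPM in the AVE0991 libraries, against 149.4, 140.8 and 139.8 CPM in vehicle libraries. All AVE0991 libraries were above all vehicle libraries, at a log2 fold change of 0.21 ± 0.09 (SE) and an edgeR adjusted p of 0.219. Hnrnpu, the scaffold attachment factor that holds Xist RNA on the inactive X chromosome, had 188.4, 188.0 and 199.7 CPM in the AVE0991 libraries, against 234.1, 194.3 and 213.0 CPM in vehicle libraries. The groups overlapped through AVE0991 replicate 3 and vehicle replicate 2, and the log2 fold change was -0.15 ± 0.11 (SE). Hnrnpul2 averaged 177.3 ± 6.72 CPM in AVE0991 and 184.5 ± 6.63 CPM in vehicle libraries.

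The prototype A/B proteins, which package nascent RNA and bind exonic silencers, showed small differences. Hnrnpa1 had 112.9, 106.7 and 94.1 CPM in the AVE0991 libraries, against 111.0, 108.1 and 110.1 CPM in vehicle libraries. AVE0991 replicate 1 was the highest and replicate 3 the lowest of all 6, so the groups overlapped (log2 fold change -0.07 ± 0.10, SE). Hnrnpa2b1 had 84.8, 82.8 and 91.5 CPM in the AVE0991 libraries, against 103.1, 89.3 and 96.8 CPM in vehicle libraries. Only AVE0991 replicate 3 reached into the vehicle range, and the log2 fold change was -0.16 ± 0.10 (SE). Hnrnpa3 averaged 114.9 ± 19.4 CPM in AVE0991 and 133.8 ± 5.64 CPM in vehicle libraries. Hnrnpa0 and Hnrnpab had log2 fold changes of 0.03 and -0.11.

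Of the remaining hnRNPs, Hnrnpd, also called AUF1 and a binder of AU-rich decay elements, had 73.6, 82.4 and 65.0 CPM in the AVE0991 libraries, against 86.2, 86.3 and 90.1 CPM in vehicle libraries. The groups did not overlap, and AVE0991 libraries were the more spread (log2 fold change -0.25 ± 0.11, SE). Its paralog Hnrnpdl had a log2 fold change of -0.22 ± 0.11 (SE), with overlap. Hnrnpr, which takes part in axonal mRNA transport in motor neurons, had 53.9, 48.4 and 49.6 CPM in the AVE0991 libraries, against 59.6, 56.4 and 58.6 CPM in vehicle libraries. These groups were apart, with a log2 fold change of -0.20 ± 0.09 (SE). Hnrnpk had 298.9, 279.6 and 273.4 CPM in the AVE0991 libraries, against 260.8, 292.1 and 293.7 CPM in vehicle libraries. The most abundant member by CPM was thus mixed between groups (log2 fold change 0.01 ± 0.10, SE). Hnrnpc had a log2 fold change of -0.13, and Hnrnpm, whose direction changed with the scaling, one of 0.03.

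The fold changes of the members moved with the GC content of their transcripts, as did those of all genes. The longest annotated transcript had a median GC content of 43.6% over the members, against 49.8% over all genes with a value. Among genes of over 40% to 42% GC, all 10 members had a log2 fold change below 0, as had 85.5% of all genes there, and the medians were -0.25 for the members and -0.38 for all genes. The 10 were Srsf1, Srsf3, Srsf5, Srsf7, Srsf10, Hnrnpd, Hnrnph2, Hnrnpll, Hnrnpr and Hnrnpu. Above 50% GC, 0 of the 4 members (Hnrnpa0, Hnrnpl, Hnrnpul1 and Srsf4) were below 0, against 27.3% of all genes, and the medians were 0.13 and 0.16. Across genes, GC content and log2 fold change had a Pearson correlation of 0.645 and a Spearman correlation of 0.619 over the 31 members, and 0.426 and 0.499 over 16859 genes. These are descriptions, since genes of the same 6 libraries are not independent.

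**Figure D4:**
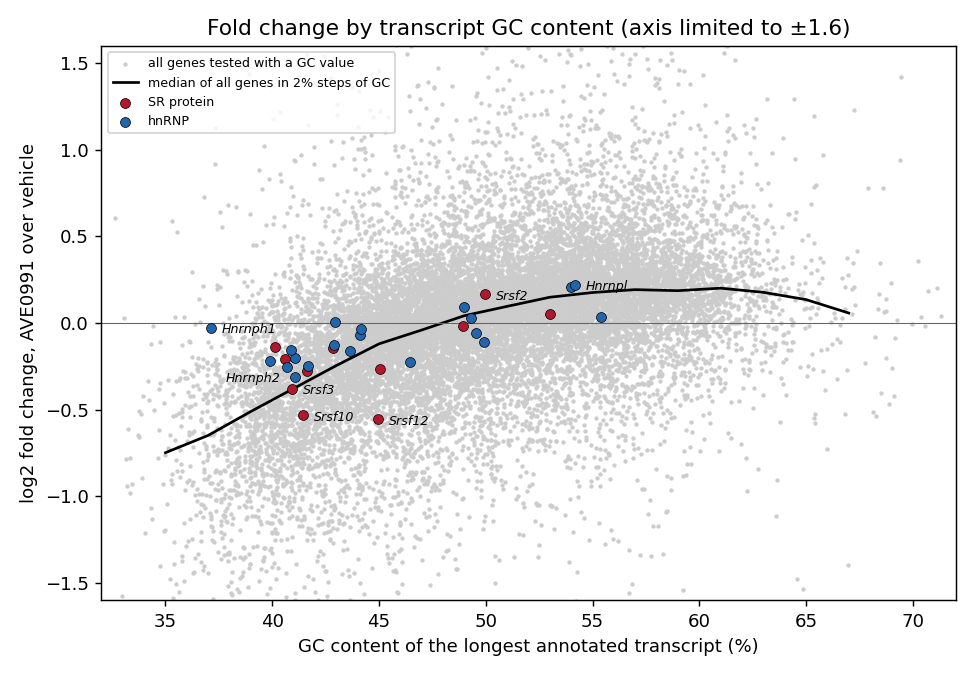
Log2 fold change of AVE0991 over vehicle against GC content of the longest annotated transcript, for all genes (grey), SR protein genes (red) and hnRNP genes (blue), with the median of all genes in steps of 2% (line). Members rise from left to right with the line and lie on both sides of it.

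With a correction of each library for transcript GC content, the median log2 fold change was 0.01 for SR protein and 0.08 for hnRNP genes, and -0.02 for all genes. No member was called by edgeR in either direction after the correction, against 0.00491% of all genes higher and 0% lower. Values below 0 then numbered 10 of 31 members, against 53% of all genes. Srsf3 had a corrected log2 fold change of 0.01 ± 0.10 (SE), Hnrnph2 one of 0.07 ± 0.10, and Srsf7 one of 0.06 ± 0.09. Hnrnpl and Hnrnpul1, at 54.2% and 54.0% GC, had corrected values of 0.06 and 0.04. Srsf10 had a corrected value of -0.18 ± 0.12 (SE), and Srsf12, at 44.9% GC, one of -0.42 ± 0.16, with edgeR adjusted p of 0.515 and 0.301. Srsf12 was the 1 member at an unadjusted p under 0.05 in the lower direction after the correction, against 7.48% of all genes. Higher at that level were Srsf5, Hnrnpu, Hnrnpk and Hnrnph1, against 7.76% of all genes.

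The transcript from which GC content was taken mattered in these families, because 8 of the 31 longest annotated transcripts were not protein-coding. They were retained-intron transcripts in Srsf3, Srsf4, Srsf5, Hnrnpa2b1 and Hnrnpll, decay targets in Srsf9 and Hnrnpa1, and a processed transcript in Hnrnph1. Hnrnph1 had 37.1% GC on that transcript and 45.4% on its longest protein-coding transcript, and its corrected log2 fold change was 0.62 with the first and 0.10 with the second. With the first, DESeq2 called Hnrnph1 higher, against 1.92% of all genes, and 0 members lower, against 1.95%. Srsf5 had 0.31 and 0.04 in the same order. With protein-coding transcripts the medians were 0.04 for SR protein and 0.06 for hnRNP genes, and Srsf12 had -0.40 ± 0.16 (SE). Promoters of the members did not share the low GC content of the transcripts. In the 29 members with a RefSeq promoter sequence (GRCm38.p6, 250 bases before to 50 bases after the start), the median GC content was 68.3%, against 59.7% over 14057 genes. The GC box GGGCGG, on either strand, was present in 23 of the 29, against 57.7% of all, and CCAAT in 16, against 38.1%.

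At least 1 transcript annotated as a target of nonsense-mediated decay was present for 9 of 11 SR protein genes and 10 of 20 hnRNP genes, against 26.5% of the protein-coding genes tested. The median log2 fold change was -0.15 over the 19 members with such a transcript and -0.08 over the 12 without. SR protein genes, with the lower family median (-0.21 against -0.09), had such transcripts more often. The contrast thus cannot be told apart from the difference between the families. Gene counts do not separate these transcripts from the productive ones.

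In the list of SR protein kinases, phosphatases and importers, edgeR called 0 of 15 genes higher, against 0.0344% of all genes, and 1 lower, against 0.83%. DESeq2 called 1 of the 15 higher, against 4.71% of all genes, and 4 lower, against 6.48%. Ppp1cb, a catalytic subunit of protein phosphatase 1, fell to 120.0 ± 11.1 CPM in the AVE0991 libraries, against 187.4 ± 2.94 CPM in vehicle libraries (SD, n = 3 each). Its log2 fold change was -0.64 ± 0.10 (SE, edgeR adjusted p 0.0498), and -0.25 with an adjusted p of 0.316 after the GC correction. Clk1, a kinase of the CLK family that phosphorylates SR proteins, had 15.3, 15.3 and 25.1 CPM in the AVE0991 libraries, against 40.2, 30.9 and 30.0 CPM in vehicle libraries. These groups did not overlap, and the log2 fold change of -0.86 ± 0.23 (SE) had an edgeR adjusted p of 0.114. Ppp1cc, another catalytic subunit of the phosphatase, had a log2 fold change of 0.42 ± 0.10, and the kinase Prpf4b one of -0.37 ± 0.10 (SE). After the GC correction, Clk1, Ppp1cc and Prpf4b had -0.36, 0.38 and 0.02 (edgeR adjusted p 0.456, 0.218 and 0.933).

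Among 41 tested hnRNP-like and other splicing regulators, edgeR called 0 higher, against 0.0344% of all genes, and 1 lower, against 0.83%. DESeq2 called 3 of them higher, against 4.71% of all genes, and 7 lower, against 6.48%. Matr3, a nuclear matrix protein mutated in human motor neuron disease, fell to 176.2 ± 16.1 CPM in the AVE0991 libraries, against 289.5 ± 11.9 CPM in vehicle libraries (SD, n = 3 each; log2 fold change -0.72 ± 0.11, SE, edgeR adjusted p 0.0462). After the GC correction the value was -0.16, with an edgeR adjusted p of 0.517. Neither Ppp1cb nor Matr3 was called with RLE size factors in place of TMM. Elavl2, a neuronal Hu protein, Khdrbs2, a STAR-family regulator, and Ptbp1, which represses neuronal exons, had log2 fold changes of -0.82, -1.07 and 0.46 and were not called. The list's median was -0.24 before the GC correction and -0.01 after it.

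In the other lists edgeR called 0 of 28 SR-related proteins, 0 of 47 core spliceosome genes and 0 of 15 genes of nonsense-mediated decay. At an unadjusted p under 0.05, the numbers higher and lower were 2 and 7, 10 and 5, and 3 and 0 in these lists, against 10.9% higher and 12.7% lower of all genes. DESeq2 called 0 higher and 5 lower, 6 and 2, and 2 and 0 in them, against 4.71% higher and 6.48% lower of all genes. The medians of the log2 fold change were 0.06, 0.09 and 0.12. The SR-related proteins with the smallest p were Bclaf1, Srek1, Rbm39 and Luc7l3, with log2 fold changes of -0.53, -0.78, -0.62 and -0.77. After the GC correction these were -0.04, -0.32, -0.39 and -0.43, with edgeR adjusted p from 0.292 to 0.849. Of all 28 SR-related proteins, 16 were above 0 and 12 below before the correction. In the spliceosome list Sf3a2, Sf3b3, Sf3b1 and Snrpb2, all subunits of the U2 particle, had 0.42, 0.29, -0.37 and -0.52 (edgeR adjusted p 0.0866 to 0.126). The decay factors Upf1, Smg9, Smg5 and Smg8 had 0.34, 0.34, 0.30 and 0.24 (edgeR adjusted p 0.107 to 0.223). After the GC correction, Sf3a2, Sf3b3, Sf3b1 and Snrpb2 had 0.20, 0.25, -0.06 and -0.02 (edgeR adjusted p 0.275 to 0.961). Upf1, Smg9, Smg5 and Smg8 then had 0.12, 0.12, 0.11 and 0.17 (edgeR adjusted p 0.429 to 0.633). The corrected medians were 0.01 for SR-related proteins, 0.06 for the spliceosome and 0.11 for decay.

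The authors' deposited table of their own comparison gave q-values for all 31 members, and 0 had a q under 0.05, against 1.78% higher and 2.93% lower of 33677 gene rows. In the authors' deposited table, members lower at a p under 0.05 numbered 4 (Srsf3, Srsf10, Srsf12 and Hnrnph2), against 7.79% of gene rows, and 1 was higher (Hnrnpul1), against 7.81%. The smallest p there were those of Srsf10, Srsf12 and Srsf3, with deposited log2 fold changes of -0.51, -0.53 and -0.36 and q-values of 0.0668, 0.0975 and 0.0988.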

How the data were processed

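Ribosomal-RNA-depleted total RNA of 6 libraries was sequenced with dUTP in the second strand, per the labels' protocols. HISAT and the mm9 build are named in the submitters' processing notes. Tool versions, how reads were counted and on which annotation or strand are not stated in any source used here. The authors deposited estimated counts per gene and library, and FPKM per gene and library, and a comparison table with log2 fold changes, p-values and q-values, from DESeq2 per the file headers. Estimated counts were fractional in at least 1 library for 11 of 31 members (35.5%) and 35.3% of all genes tested, and such members (among them Hnrnpa1, Hnrnpa3, Hnrnpc, Hnrnpu and Srsf4) are uncertain where the counting could split reads with similar copies or overlapping genes.

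The estimated counts were rounded and tested with edgeR 4.0.16 under R 4.3.3 (filterByExpr, TMM, robust quasi-likelihood F test, no covariates, Benjamini-Hochberg adjustment, calls at an adjusted p under 0.05). Standard errors are log2 fold changes over the root of F. CPM use TMM library sizes. DESeq2 1.42.0, limma 3.58.1, other filters, offsets from smooth curves (6 degrees of freedom) of log count on GC content or length, and fits without each library were alternatives. GENCODE M21 (GRCm38) served for GC content, length and transcript types only, since the files use mm9. Each pair of libraries within a group differed beyond sampling noise (chi-square per gene 16.5 or more). Totals of 44583274 to 50066615 counts per library make counting error small beside the spread between libraries.

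Members in every library are given for the 6 smallest p and the 3 highest mean CPM in each family, for the prototypes (Srsf1, Srsf2, Srsf3, Srsf10, Hnrnpa1, Hnrnpa2b1, Hnrnpk and Hnrnpu) and for the 3 largest changes per family. From each pathway list up to 4 genes were taken by smallest p. The members, lists and tests were chosen with earlier results of these data known. Circular RNAs of these genes are not analysed here, since their identifiers are not paired with gene names.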

Additional observations from a re-analysis of the deposited data

How the results depend on the processing

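No member was called higher by any alternative on counts or FPKM without a GC correction, and members were called lower by DESeq2 (3), by limma-voom (1) and without AVE0991 replicate 1 (1). The medians of both families were below 0 under every alternative except the GC corrections. With the GC correction they were 0.0071 for SR protein and 0.077 for hnRNP genes, with 10 members below 0, 1 lower at an unadjusted p under 0.05, and 1 gene higher and 0 lower of all genes. Signs then changed for Hnrnpa0 (-0.16), Hnrnpa1 (0.11), Hnrnpa2b1 (0.049), Hnrnpa3 (0.24), Hnrnpc (0.13), Hnrnpd (0.087), Hnrnph1 (0.62), Hnrnph2 (0.068), Hnrnph3 (0.14), Hnrnpll (0.15), Hnrnpm (-0.025), Hnrnpr (0.18), Hnrnpu (0.24), Srsf1 (0.20), Srsf3 (0.0071), Srsf4 (-0.10), Srsf5 (0.31), Srsf6 (0.11) and Srsf7 (0.063). The lists of SR kinases and of hnRNP-like regulators then had 0 calls, as with RLE size factors.

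A pair of GC alternatives was chosen after seeing the data. GC-corrected DESeq2 gave values within rounding of these (Hnrnpa0 -0.15, Hnrnpm -0.024), 391 higher and 396 lower of all genes, 10 members below 0, 1 lower at an unadjusted p, and 1 member called higher, Hnrnph1 (DESeq2 adjusted p 0.000501). With protein-coding transcripts the medians were 0.039 and 0.061, with 11 members below 0, 1 lower at an unadjusted p, and 1 gene higher and 0 lower of all genes. Signs then changed for Hnrnpa0 (-0.15), Hnrnpa1 (0.058), Hnrnpa2b1 (0.058), Hnrnpa3 (0.28), Hnrnpc (0.16), Hnrnpd (0.12), Hnrnph1 (0.10), Hnrnph2 (0.11), Hnrnph3 (0.16), Hnrnpm (-0.015), Hnrnpr (0.22), Hnrnpu (0.28), Srsf1 (0.24), Srsf3 (0.12), Srsf4 (-0.15), Srsf5 (0.039), Srsf6 (0.14) and Srsf7 (0.10).

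Of all genes, higher and lower calls numbered 958 and 1318 with DESeq2, 449 and 721 with limma-voom, 58 and 379 without a filter, 18 and 328 at a mean of at least 1 CPM, and 1 and 1 with circular RNA rows in the fit. They were 13 higher with the length correction, and 287 and 310 lower on log2 FPKM with a pseudocount of 0.1 and 1. Members lower at an unadjusted p numbered 8 with limma-voom, 9 at a mean of at least 1 CPM, 8 with circular RNA rows, and 10 on FPKM with either pseudocount, where the hnRNP median was -0.17 and -0.16. FPKM were not rescaled between libraries, and their sums differ between the groups. Among the fits made here, shares of all genes at an unadjusted p are given only for the main fit and the edgeR correction on the longest annotated transcript. Without that share, the other counts are no result about the members. DESeq2 called 5, 5, 10, 8 and 2 genes, and limma-voom 2, 1, 4, 2 and 1, in the lists of kinases, SR-related proteins, hnRNP-like regulators, core spliceosome and decay. Signs changed for Hnrnph1 (0.0030), Hnrnph3 (0.083), Hnrnpk (-0.047) and Srsf9 (0.0038) with limma-voom, Srsf9 (0.0011) without a filter, Hnrnpk at a mean of at least 1 CPM (-0.015) and with circular RNA rows (-0.0074), Hnrnpk (-0.014) and Hnrnpr (0.010, against -0.20 without it) with the length correction, and Hnrnpa0 (-0.049 and -0.048), Hnrnpk (-0.083 and -0.082) and Hnrnpm (-0.053 and -0.050) on FPKM with pseudocounts of 0.1 and 1.

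Leaving out each library gave 0 to 1386 genes higher, 0 to 995 lower, 0 to 1 members lower and 3 to 7 lower at an unadjusted p, and medians of -0.27 to -0.14 for SR protein and -0.12 to -0.049 for hnRNP genes. All 1386 and 995 calls came without AVE0991 replicate 1, and leaving out any other library gave 0 calls. Ranges crossed 0 for Hnrnpa1 (-0.13 to 0.0047), Hnrnph1 (-0.11 to 0.070), Hnrnph3 (-0.12 to 0.091), Hnrnpk (-0.027 to 0.040), Hnrnpm (-0.045 to 0.11) and Srsf9 (-0.050 to 0.019). Without AVE0991 replicates 2 and 3, 0 genes were called in either direction, and signs changed for Hnrnpa1 (0.049), Hnrnpab (0.055), Hnrnpf (-0.030), Hnrnpm (-0.084), Srsf4 (-0.0012) and Srsf9 (0.023), the lone library being assumed to vary like the vehicle libraries. The causes of these changes were not tested. The replicate numbers are no pairing in the labels, same-numbered libraries had correlations of -0.021, 0.092 and -0.353, and a replicate block gave 0 higher and 0 lower calls among all genes and among members. Fits of circular RNAs of these genes were not run.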
